A study of Homo sapiens with 4 samples.

Results

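DNM2 and 9 genes of the clathrin coat and its adaptors were examined for IGF2BP2 binding in Jurkat cells, a human T-ALL cell line. The genes were chosen by name as the fission GTPase DNM2, the clathrin chains CLTC, CLTA and CLTB, the AP-2 adaptor subunits AP2A1, AP2A2, AP2B1, AP2M1 and AP2S1, and the clathrin assembly adaptor PICALM. They are 10 of the 20428 gene identifiers that had a peak on their own strand in the peak lists. In iRIP-seq the cells are crosslinked with UV light, IGF2BP2 is pulled down with an antibody, and the RNA bound to it is sequenced. The experiment had 2 anti-IGF2BP2 libraries and 2 input libraries of Jurkat cells grown in RPMI-1640 medium with serum, and the labels give no treatment. Peaks were listed for the 2 anti-IGF2BP2 libraries, called replicates 1 and 2 here, and the inputs were not analysed here. Peaks in exons or introns on the strand of the gene, called sense peaks, numbered 76 in replicate 1 and 94 in replicate 2 for these genes. The whole lists held 74237 and 77288 sense peaks.

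In clathrin-mediated endocytosis, the AP-2 complex gathers cargo receptors at the plasma membrane and recruits clathrin, which is built from heavy chains and regulatory light chains and bends the membrane into a coated pit. Dynamin then assembles around the neck of the pit and cuts the vesicle free. In T cells the pathway takes up transferrin, the T-cell receptor and cytokine receptors. DNM2, the dynamin found in most tissues, is recurrently mutated in T-ALL, and PICALM is a fusion partner of MLLT10 in a subset of leukemias. IGF2BP2 is an RNA-binding protein that reads m6A, a methyl mark on adenosine in mRNA.

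Each list gives the height of a peak in tags, without adjustment for depth, and the depth of the libraries is unknown. No peak was lower than 4 tags in the first library or 5 tags in the second. Of the member peaks, 42 of 76 in replicate 1 and 36 of 94 in replicate 2 had that lowest height. Peak starts fell on a grid of 50 nt, which is the resolution of all positions given here. Positions are on GRCh38, the build named in the submitters' processing notes, and are printed as listed. Every member identifier lay on the chromosome and strand of its RefSeq gene. For CLTA, however, 9 of the 10 peaks lay beyond the 3′ end of the RefSeq gene. Labels do not say whether the replicates came from separate cultures.

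DNM2 carried the most sense peaks of the 10 genes in both libraries. The study listed DNM2 among several T-ALL genes from an overlap of these same libraries with RNA-seq after IGF2BP2 was raised or lowered. The DNM2 counts are therefore not independent evidence of binding. The list of replicate 1 held 28 DNM2 peaks and that of replicate 2 held 33, a mean of 30.5 ± 3.54 (SD, n = 2). Among 20037 protein-coding genes, 1.17% had as many peaks in replicate 1 and 1.02% in replicate 2, where genes that could not be named by position count as having none. The other 9 genes together had 48 and 61 sense peaks, a mean of 54.5 ± 9.19 (SD, n = 2). A peak found at the same place in both libraries, with at least 1 bp of overlap on the same strand, is called shared here. Both replicates held 16 shared peaks on DNM2 and 27 shared peaks on all 10 genes, so DNM2 alone had more shared sites than the other 9 genes together.

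**Figure D1:**
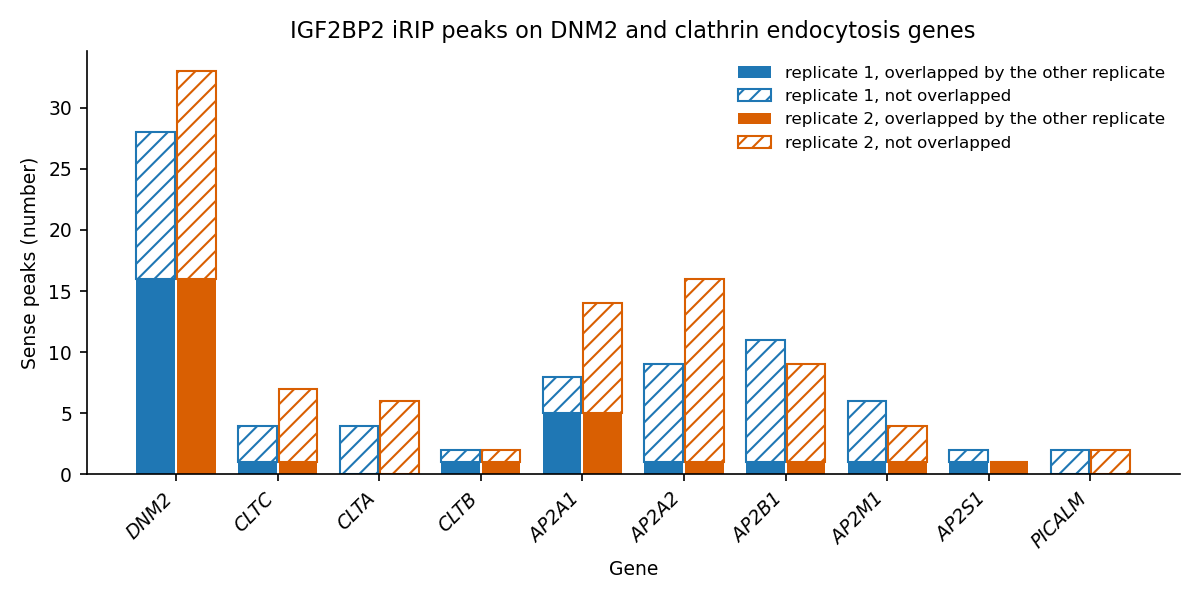
Number of sense peaks on each of the 10 genes (y axis) in iRIP replicate 1 (blue) and replicate 2 (orange). Filled parts of the bars are shared peaks and hatched parts are peaks seen in that replicate alone. DNM2 reached 28 and 33 peaks with 16 shared in each, and CLTA and PICALM had no shared peak.

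All 10 genes had a sense peak in both replicates, against 43.4% of the protein-coding genes and 69.5% of the 12521 protein-coding genes that were named and had any sense peak. A shared peak was present on 8 of the 10 genes, against 14.9% of all protein-coding genes and 23.9% of the named ones with any peak. CLTA and PICALM had none. With genes assigned by position in place of the listed identifier, 9 of the 10 genes had a peak in both replicates, and CLTA dropped out. DNM2, and none of the other 9 genes, reached 10 tags in both libraries, against 3.75% of the protein-coding genes. The members were chosen with earlier results of these data known, so these shares are not independent evidence of binding. By the study's methods, peaks that coincided with an input peak were taken out, which could not be checked in the lists used here. No input was analysed here, so peak numbers were not corrected further for how abundant or how long an RNA is. None of the differences between genes was tested.

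Over all 10 genes, 35.5% of the peaks of replicate 1 (27 of 76, 95% Wilson interval 25.7% to 46.7%) and 28.7% of those of replicate 2 (27 of 94, 20.6% to 38.6%) were shared. Among all sense peaks these shares were 16.6% and 15.8%. On DNM2, 57.1% (39.1% to 73.5%) of the peaks of replicate 1 and 48.5% (32.5% to 64.8%) of those of replicate 2 were shared. The other 9 genes had 22.9% (13.3% to 36.5%) and 18% (10.4% to 29.5%), intervals that contain the share over all sense peaks. These intervals hold only the error of counting, and PCR copies of a molecule are not independent.

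The first DNM2 site lay at the start of the gene, where the RefSeq promoter window, which ends 50 bases into the transcript, runs under it. The stretch that lies in this window and in the peaks of both replicates is shown because it is the part of a shared DNM2 peak for which reference sequence was used here. It is chr19:10718101-10718128 on the plus strand (GRCh38.p14, RefSeq), in the 5′ UTR, with capitals marking the match to GGAN, of which GGAC, the usual context of m6A, is one form.

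DNM2 5′ UTR: cgtgaggccgagccgGGAGcgggcgtct

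GGAN was searched on the transcribed strand and was present 1 time in these 28 bases, as GGAG and not as GGAC. The same part of the window held it in 46.4% of 27305 RefSeq promoters, so the match is common. The reverse complement, NTCC, was absent here and present in 37.5% of the promoters. The peak over these bases ran from 10718100 to 10718200 with 4.5 tags in the first library and to 10718150 with 6 tags in the second, which is close to the lowest height of each list.

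The next shared site followed after 54.2 kb. In this stretch each replicate had 6 peaks, none of them shared. All 6 of replicate 1 and 3 of replicate 2 lay wholly in introns, and the remaining 3 of replicate 2 lay in 5′ UTR or CDS. From there to the 3′ end the remaining 15 shared sites followed, and all 15 contained coding sequence (CDS).

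Of these, 12 lay mainly in CDS in both replicates, and 3 lay mainly in an intron with part of their length in CDS. In both libraries 14 of the 16 shared sites started at the same position. Of these, 10 (62.5% of the sites) had the same end as well, against 67.1% of the overlapping sense pairs of all genes. Peaks of the shortest length made up 97.1% and 94.7% of the lists. On the 50 nt grid, overlapping peaks of that length must have the same start and end. Equal positions therefore say little about how precisely the replicates coincide. Sequence of both CDS and intron was covered by 9 of the 16 sites. Of all DNM2 peaks, shared or not, 32.1% in replicate 1 and 36.4% in replicate 2 did so, against 15.5% and 21% of all sense peaks. The difference was not tested. The 50 nt grid is coarse beside an exon edge, so binding to intron sequence cannot be read from this count.

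The 3 highest DNM2 sites had at least 10 tags in both libraries. At 10775700 to 10775750, where 96% of the length was CDS, the heights were 13 and 20 tags in replicates 1 and 2. The site at 10825050 to 10825100, with 88% in CDS, had 11 and 22 tags. The rest of both peaks was intron sequence. The third, at 10802250 to 10802300, had 11 and 14 tags and lay 74% in an intron and 26% in CDS.

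Between 10772450 and 10783100 there were 4 more shared sites beside the highest. The peak at 10772450 to 10772600 (81% CDS) had 6 tags in replicate 1 and 9 in replicate 2. A neighbour of the highest site, 10775850 to 10775900, lay wholly in CDS and had 4 and 6 tags. At 10777100 the peaks had 7 tags in replicate 1 and 9 in replicate 2. The site at 10782950 was the only DNM2 site that was higher in replicate 1, with 9 tags against 7.67.

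In the middle of this stretch, 4 sites had 5 tags in replicate 1 and more in replicate 2. The site at 10786550 had 11.7 tags in replicate 2, and the site at 10798450 to 10798550 had 8. At 10805900 to 10805950 (70% CDS) replicate 2 reached 12 tags. The largest gap between the libraries was at 10793700 to 10793750 (62% CDS), with 5 tags in replicate 1 and 19 in replicate 2, a ratio of 3.80.

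The last sites lay toward the 3′ end of the gene. The peak that ended at 10823900 had 5 tags in replicate 1 and 7 in replicate 2. At 10829000 to 10829050 (30% CDS) the heights were 5 and 10 tags, and at 10830350, where a peak wholly in CDS ended, 4 and 6 tags. The most 3′ shared site, 10830950 to 10831000 (46% CDS), had 6 and 8 tags. The 3′ UTR of DNM2 had no peak in replicate 1 and 2 low peaks in replicate 2, with 5.5 tags at 10831150 to 10831250 and 6 tags at 10831700 to 10831750.

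**Figure D2:**
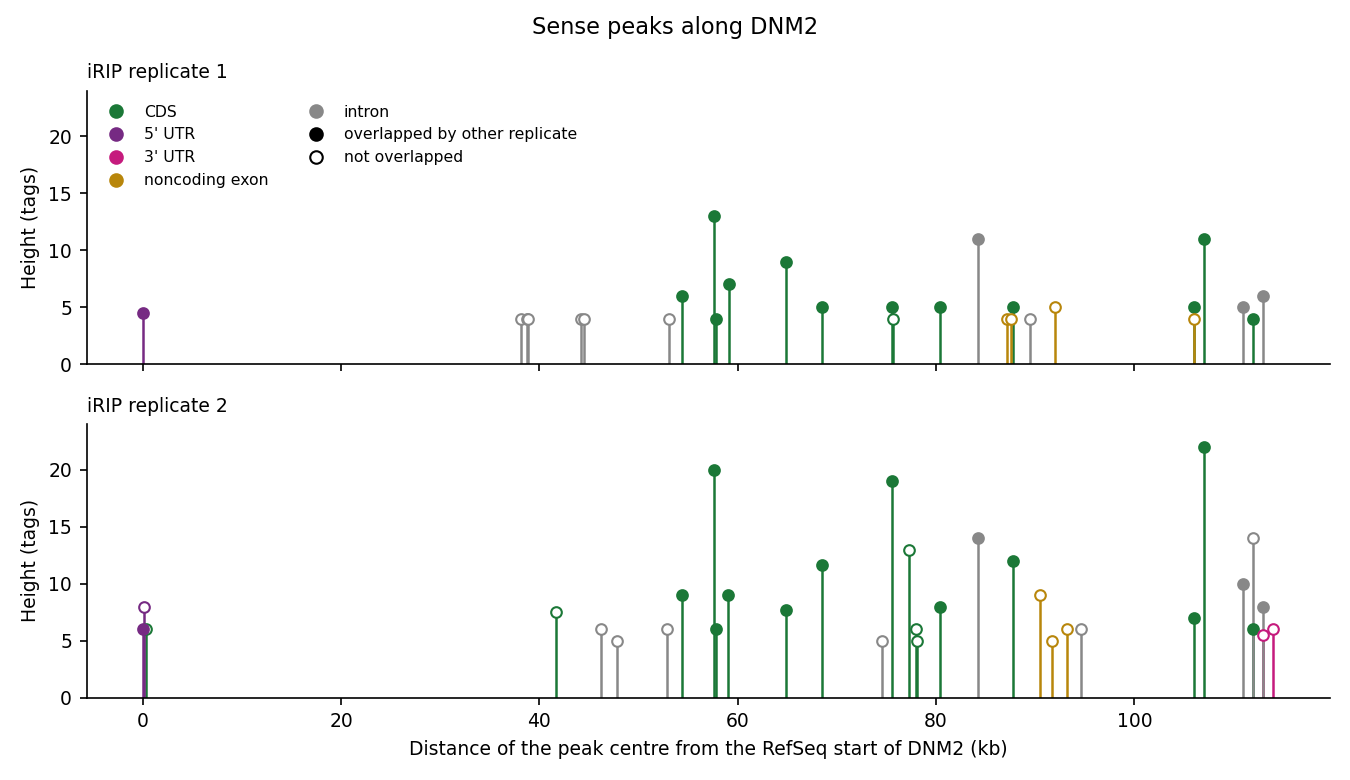
Height in tags (y axis) of each sense peak on DNM2 against the distance of its centre from the RefSeq start (x axis, kb), with replicate 1 above and replicate 2 below. Colours give the main region, filled points are shared peaks and open points are not. Apart from the 5′ UTR site, shared peaks begin 54.4 kb into the gene. The highest of replicate 1 reaches 13 tags, and the highest of replicate 2, at a different site, reaches 22 tags.

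DNM2 peaks that were not shared had lower medians. In replicate 1 the shared peaks had a median of 5 tags and reached 13, while the 12 others had a median of 4 and reached 5. In replicate 2 the medians were 9 and 6 tags, and the highest unshared peak had 14 tags at 10830100 to 10830150. Another unshared peak of replicate 2, at 10795350 to 10795400, had 13 tags with 58% of its length in CDS.

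The clathrin heavy chain gene CLTC, which encodes the legs of the clathrin triskelion, had 4 sense peaks in replicate 1 and 7 in replicate 2. Its only shared site was in the 5′ UTR and began 0.055 kb from the RefSeq start. It ran from 59619950 to 59620000 of chromosome 17 with 4 tags in the first library and to 59620050 with 6.5 tags in the second. The remaining CLTC peaks had at most 5 and 7 tags. Coding sequence was touched by 1 CLTC peak in each replicate, at different places.

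CLTB, which encodes a clathrin light chain, had 2 sense peaks in each replicate. The shared site at 176410250 to 176410300 of chromosome 5 lay 88% in CDS and had 4 tags in replicate 1 and 5 in replicate 2, the lowest height of each list. The other CLTB peak of replicate 1 was the highest on the light chain genes, with 8 tags at 176416150 to 176416200, and replicate 2 had no peak there.

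CLTA, which encodes the other light chain, had 4 sense peaks in replicate 1 and 6 in replicate 2. All lay wholly in introns of the authors' annotation, none was shared, and the heights were 4 tags throughout replicate 1 and 5 to 7 tags in the other library. The highest, at 36206950 to 36207000 of chromosome 9, was the only CLTA peak inside the RefSeq gene. By that annotation, no CLTA peak lay in an exon.

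Among the AP-2 genes, the alpha subunit genes had the most peaks by their mean, and AP2A1 had the most shared sites. Alpha subunits bind membrane lipid and recruit accessory proteins through their ear domain. AP2A1 had 8 sense peaks in replicate 1 and 14 in replicate 2, of which 5 in each were shared. AP2A2 had 9 and 16 peaks with 1 shared. Peaks per 10 kb of gene, introns included, were 1.99 and 3.49 on AP2A1 and 1.04 and 1.85 on AP2A2. Both values of AP2A1 thus lay above the value of AP2A2 in the same replicate, a difference that was not tested.

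The 5 shared AP2A1 sites lay between 28.6 and 39.1 kb from the start of the gene and all contained CDS. By the lower of their heights the highest was at 49795600 to 49795650 of chromosome 19, with 7 tags in replicate 1 and 6 in replicate 2 and 42% of its length in CDS. The site at 49801950 to 49802000 had 4 and 9 tags. Those at 49798800, 49805850 and 49806100 lay mainly in CDS and had 4 or 5 tags in replicate 1 and 5 to 7 in replicate 2. The shared AP2A2 site, at 986750 to 986800 of chromosome 11, had 7 and 8 tags and lay 68% in an intron and 32% in CDS. AP2A2 also had a peak of 9 tags in replicate 2 at 985400 to 985450 that replicate 1 did not share.

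AP2B1, the beta subunit gene whose product binds clathrin, had 11 sense peaks in replicate 1 and 9 in replicate 2 over a gene of 139092 nt. The shared site at 35598200 to 35598250 of chromosome 17 had 5 and 6 tags, with 42% of its length in CDS. The highest AP2B1 peak, 10 tags in replicate 1 at 35594000 to 35594050, covered 5′ UTR, CDS and intron and had no counterpart in replicate 2. In turn, the 9 tags of replicate 2 at 35650500 to 35650550 had none in replicate 1. With means of 10 ± 1.41 peaks on AP2B1 and 11 ± 4.24 on AP2A1 (SD, n = 2), the ranges of the genes overlapped, while the shared sites numbered 1 and 5.

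AP2M1 encodes the mu subunit, which recognises tyrosine-based sorting signals. It had 6 sense peaks in replicate 1 and 4 in replicate 2 on a gene of 9237 nt. Per 10 kb of gene, introns included, its 6.5 and 4.33 peaks were the most of the 10 genes. Density on the mRNA was not measured. The shared site at 184180150 to 184180200 of chromosome 3 lay 64% in CDS and had 5 and 6 tags. A 5′ UTR peak and a CDS peak of 8 tags each were listed in replicate 2 only.

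AP2S1, the gene of the small sigma subunit, had 2 sense peaks in replicate 1 and 1 in replicate 2. The shared site at 46850750 to 46850800 of chromosome 19 lay 94% in the 5′ UTR in the authors' annotation and 6% in CDS. It had 8 tags in replicate 1 and 5 in replicate 2, so the order of the libraries was opposite to that at most other sites.

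PICALM, whose product binds clathrin and membrane lipid and sets the size of the vesicle, had 2 sense peaks in each replicate on a gene of 112686 nt. This was 0.177 peaks per 10 kb, against 2.46 and 2.9 on DNM2, a gene of nearly the same length (113825 nt). The PICALM peaks lay wholly in introns, had 4 tags in replicate 1 and 5 and 6 tags in replicate 2, and none was shared.

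**Figure D3:**
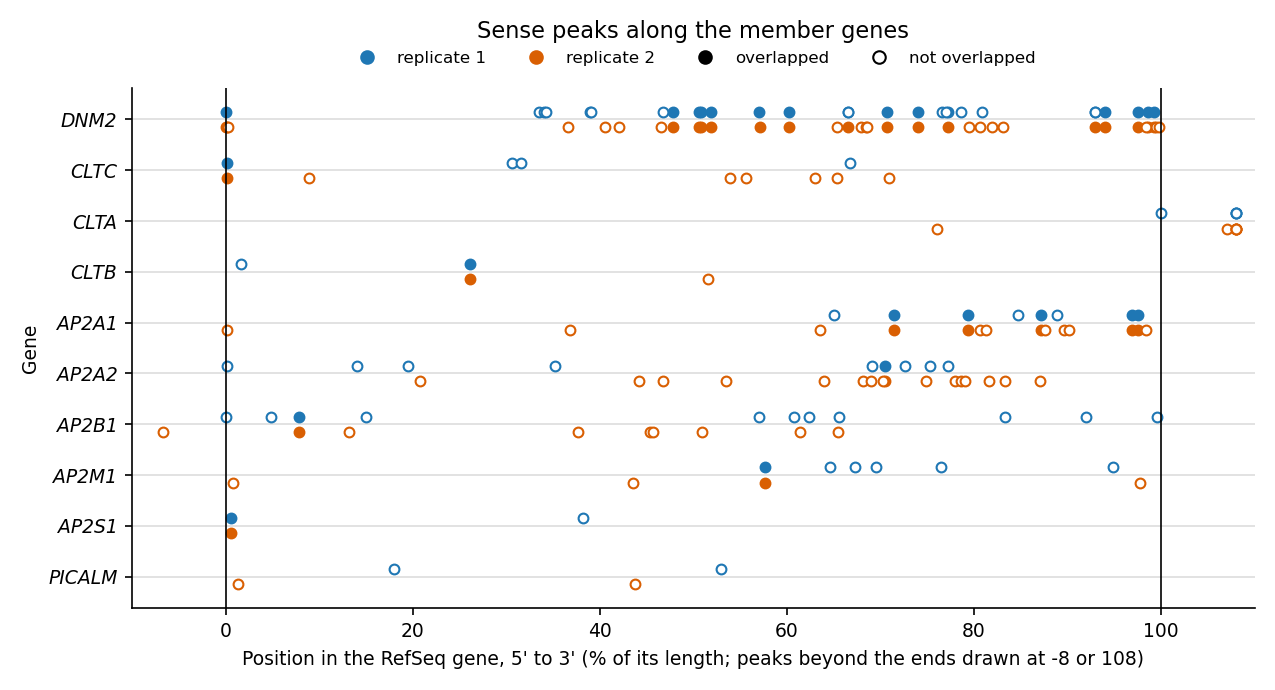
Position of each sense peak in its RefSeq gene from the 5′ to the 3′ end (x axis, percent of gene length) for the 10 genes (y axis), in replicate 1 (blue) and replicate 2 (orange). Filled points are shared peaks, open points are not, and peaks far beyond a gene end are drawn at the margin. Shared peaks sit at the gene start on DNM2, CLTC and AP2S1, in the 3′ part of DNM2 and AP2A1, and are absent on CLTA and PICALM, where most CLTA peaks lie past the 3′ end.

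By the authors' regions, 36.8% (26.9% to 48.1%) of the member peaks of replicate 1 and 33% (24.3% to 43%) of those of replicate 2 lay mainly in CDS, a mean of 34.9%. Over all sense peaks the shares were 19.9% and 25.6%. The member interval lay above the share of all sense peaks in replicate 1 and contained it in replicate 2, and the difference was not tested. DNM2 had 46.4% and 51.5% of its peaks mainly in CDS, and the other 9 genes 31.2% and 23%. Introns were the main region of 43.4% and 50% of the member peaks, against 69.2% and 62.4% of all sense peaks.

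The 5′ UTR was the main region of 6 member peaks in replicate 1 (7.89%, 3.67% to 16.2%) and of 7 in replicate 2 (7.45%, 3.65% to 14.6%), against 2.78% and 3.33% of all sense peaks. DNM2, CLTC, AP2S1 and AP2B1 had such a peak in both libraries, and on the first 3 it was at the same site. The AP2B1 peaks of the libraries were at different places, and that of replicate 2 lay outside the RefSeq gene with only 10% of its length annotated as 5′ UTR. The 3′ UTR was the main region of 2 and 3 member peaks (2.63% and 3.19%), near the 3.65% and 4% of all sense peaks, and none of them was shared.

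All shared sites of the 10 genes reached into an exon. Of the 27 sites, 25 contained CDS in both replicates, 15 of these with intron sequence as well, and the remaining 2 were the 5′ UTR sites of DNM2 and CLTC. CDS and intron together were covered by 31.6% and 31.9% of all member peaks, against 15.5% and 21% of all sense peaks. Among member peaks with any CDS, 58.1% (43.3% to 71.6%) were shared in replicate 1 and 50% (36.6% to 63.4%) in replicate 2. Without CDS the shares were 6.06% (1.68% to 19.6%) and 4.55% (1.26% to 15.1%). In other genes the same contrast was 46.7% against 5.24% in replicate 1 and 34.5% against 5.53% in replicate 2.

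Among peaks wholly in introns, 0 of 23 (replicate 1) and 0 of 33 (replicate 2) were shared, which allows shares of up to 14.3% and 10.4% by the Wilson interval. In other genes 2.91% and 3.22% of such peaks were shared, so the 0 on the members cannot be told from that level at these numbers. Height moved with the region. Member peaks with CDS had medians of 5 and 7 tags and wholly intronic ones 4 and 5 tags in replicates 1 and 2, and the part of height in the contrast was not tested.

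DNM2 peaks with CDS were shared in 88.2% (65.7% to 96.7%) of 17 cases in replicate 1 and in 65.2% (44.9% to 81.2%) of 23 in replicate 2. Both intervals lay above the shares in other genes, but peaks of a single gene in the same libraries are not independent. The difference was not tested, and the study's listing of DNM2 drew on the same libraries. On the other 9 members 38.5% (22.4% to 57.5%) and 37.0% (21.5% to 55.8%) of such peaks were shared, and both intervals contained the shares in other genes. The median height of these DNM2 peaks was 5 tags in replicate 1, equal to that in other genes, and 9 tags in replicate 2 against 6.5 in other genes.

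**Figure D4:**
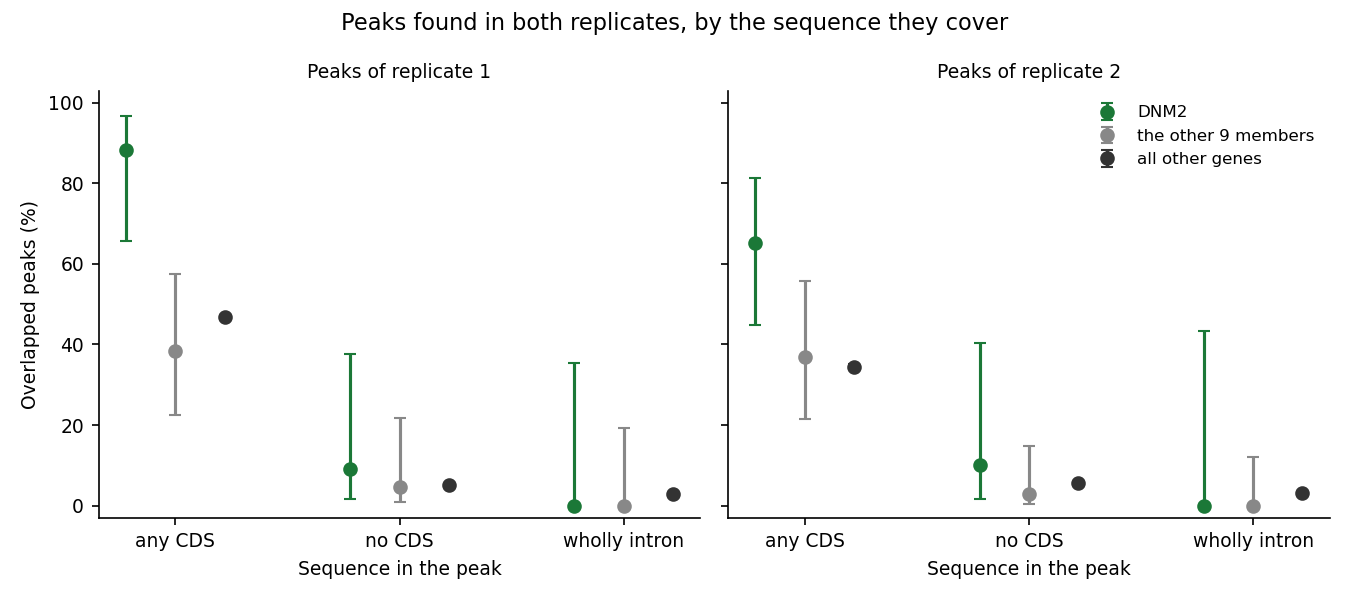
Percent of sense peaks overlapped by the other replicate (y axis), for peaks of replicate 1 (left) and replicate 2 (right) that contain any CDS, no CDS or only intron (x axis). Points are DNM2 (green), the other 9 members (grey) and all other genes (black), and bars are 95% Wilson intervals. DNM2 peaks with CDS stand highest at 88.2% and 65.2%, and no wholly intronic member peak was shared.

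At the 27 shared sites, replicate 2 was higher in 24 and replicate 1 in 3. The median ratio of replicate 2 over replicate 1 was 1.40, the same as over 12467 overlapping pairs of sense peaks of all genes, of which 77.8% were higher in replicate 2. On DNM2 alone the ratio ran from 0.852 to 3.80 with a median of 1.5. Heights were not adjusted for depth, so the ratio compares the libraries and not a condition. Across the 16 DNM2 sites the heights had a Spearman rho of 0.653, given as a description, since the sites share their libraries and gene. Across the 11 sites of the other genes rho was -0.0125, where all heights were between 4 and 9 tags.

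**Figure D5:**
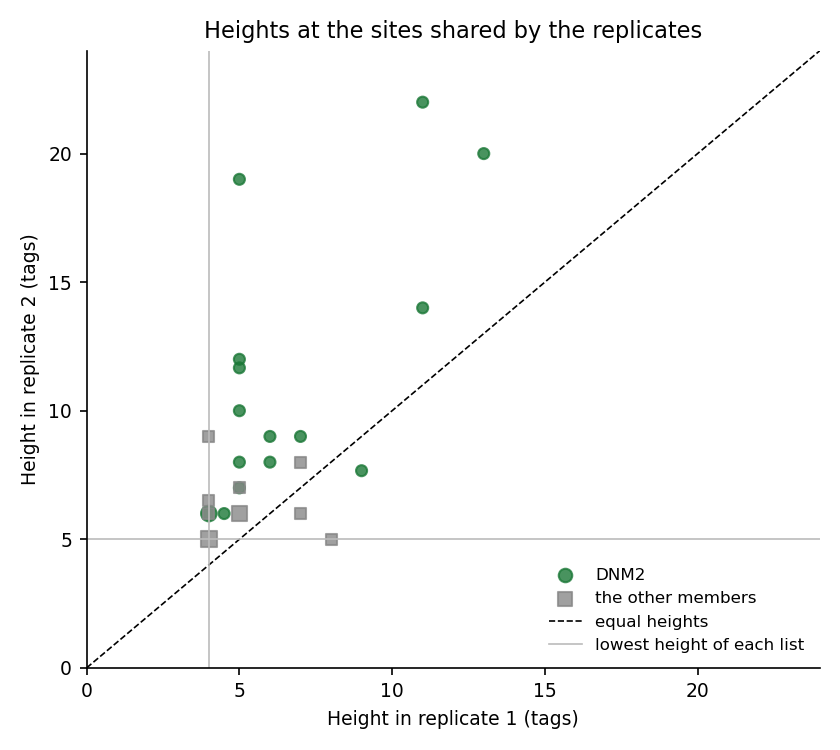
Height in replicate 2 (y axis, tags) against height in replicate 1 (x axis, tags) at the 27 sites shared by the replicates, with DNM2 in green circles and the other members in grey squares. Symbol area grows with the number of sites at the same heights, the dashed line marks equal heights and grey lines the lowest height of each list. Of the 27 sites, 24 lie above the dashed line, and the sites of the other members stay at or under 9 tags.

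A list of 65 other genes of the clathrin pathway was read in the same way, and 59 of them could be named by position. Of the 65 genes, 53 (81.5%) had a sense peak in both replicates and 26 (40.0%) had a shared peak, against 43.4% and 14.9% of all protein-coding genes and 69.5% and 23.9% of the named ones with any sense peak. The list had medians of 5 sense peaks per gene in both replicates, against 1 over all protein-coding genes and 2 over the named ones. The counts were not corrected here for the length or abundance of these genes, and the difference from all genes was not tested. This list, too, was chosen with earlier results of these data known.

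Of the other dynamin genes, DNM1 had 11 sense peaks in replicate 1 and 13 in replicate 2 with 1 shared, DNM3 had 12 and 8 with none shared, and DNM1L had 3 and 2 with 1 shared. All 3 thus had fewer shared sites than the 16 of DNM2.

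By the lower of their counts in the replicates, the 5 genes of the list with the most peaks were FNBP1, IGF2R, GAK, SH3KBP1 and EPS15L1. FNBP1, a membrane-curving F-BAR protein that binds dynamin, had 45 sense peaks in both replicates, 15 and 14 of them shared. IGF2R, the cargo receptor for mannose 6-phosphate and IGF2, had 32 and 57 peaks with 17 and 16 shared. GAK, a kinase that takes part in uncoating, had 29 and 32 with 13 shared in each. The endocytic adaptors SH3KBP1 and EPS15L1 had 25 and 25 peaks with 9 shared and 18 and 22 peaks with 2 shared.

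Shared sites that reached 10 tags in both libraries were found on 4 genes of the list. The highest lay on HSPA8, the chaperone that removes clathrin from vesicles, at 123059750 to 123059800 of chromosome 11, with 14 tags in replicate 1 and 19 in replicate 2. HSPA8 has processed copies in the genome, and reads that fit several places were not kept by the authors. FNBP1 had 11 and 16 tags, GAK 10 and 11.5, and EPN1, which encodes the cargo adaptor epsin 1, 10 and 13.5. DNM2, with 13 and 20 tags at its highest site, stood between HSPA8 and FNBP1 by the lower height.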

How the data were processed

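The data were the peak lists of 2 anti-IGF2BP2 iRIP libraries from Jurkat cells. By the methods and the submitters' processing notes, reads were paired with 150 bp per end, TopHat 2 placed them on GRCh38, and unique placements were used. By the study's methods, peaks were called in every library separately with ABLIRC, from 500 simulations per gene at a p value of 0.05. By the same methods, anti-IGF2BP2 peaks that coincided with a peak of the input were then taken out. Whether this holds for the lists used here could not be checked without the inputs. The deposited height is a signal in tags, whole in 98.6% and 97.2% of peaks. Each peak has a deposited p-value, used only as a filter. Member peaks of 50 nt from start to end with the same height, strand and library had the same p-value on every gene. How that value relates to simulations run per gene is not given in the sources used here. The annotation behind the regions is not given in the sources used here.

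The main region of a peak is the one with most of its length. For 2 member peaks with a tie of CDS and intron, the region listed first was taken. Members were taken by Ensembl identifier. Other identifiers were named by position in RefSeq genes (GRCh38.p14), on the strand of the promoter table where it gives one (15843 of 20037 protein-coding genes), if exactly 1 protein-coding gene, widened by 1000 nt, contained 80% or more of the CDS and UTR peaks. Identifiers without such peaks were named if exactly 1 gene contained all their peaks, and names claimed by several identifiers were dropped unless 1 of them had CDS or UTR peaks. In all, 15416 of 20428 identifiers were named. By this rule 9 of the 10 members got their own symbol and CLTA stayed unnamed. Positions were read as half-open intervals. The shortest peaks have a length of 51 nt while their start and end differ by 50, which would also fit closed intervals. With touching peaks counted as overlapping, 17 DNM2 peaks of each replicate were shared. Named were all members, every shared DNM2 site, the highest shared site of each other member by the lower height, the 5 pathway genes with the most peaks by the lower of the replicate counts, and those with a shared site of 10 tags or more. Other members' further peaks, the 3 dynamin genes and unshared peaks were named after their values were seen. The members and lists were chosen with earlier results of these data known. No test was run, as the design has a single condition. The functions for overlap and naming were tested on simulated data. Python 3.11.15, numpy 2.4.6, pandas 2.3.3, scipy 1.17.1 and matplotlib 3.10.9 were used.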

Additional observations from a re-analysis of the deposited data

Results flagged for a closer look

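Peaks on the strand opposite to the members, which the report leaves out, numbered 13 in replicate 1 on 6 genes and 9 in replicate 2 on 3 genes. They are given here because they lie outside the sense peaks compared above. They were 14.6% and 8.74% of the peaks with a member identifier, below the 28.1% and 23% over all genes. None of them was shared by the replicates, where 0.654% and 0.821% of all antisense peaks were, so the absence says nothing particular about these genes. None overlapped a sense peak of its gene. The highest had 5 tags in replicate 1, on DNM2. In replicate 2 the highest had 10 tags, at 35581050 to 35581100 of chromosome 17. It carried the AP2B1 identifier but lay upstream of the RefSeq gene.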

How the results depend on the processing

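No paired analysis was possible because the inputs that share replicate numbers with the iRIP libraries have no values here. With a height of at least 10 tags, 1 of the 10 genes (DNM2) kept a peak in both replicates, the members had a mean of 6.50 peaks and DNM2 6, and 3 DNM2 peaks of either replicate were shared. Of the 4 member peaks left in replicate 1, 75.0% were shared, the mean share mainly in CDS was 58.3%, and 5 other pathway genes kept a peak in each library. With a p value under 0.001, 5 genes had a peak in both replicates, and the means were 22 and 10.5 peaks. In that setting 4 DNM2 peaks of either replicate were shared, as were 16.1% of the peaks of replicate 2. The CDS share was 40.2%, and 24 pathway genes kept a peak in each library. For peaks of 50 nt from start to end this filter acts as a height cut that differs between the libraries. Such a plus-strand peak of 6 tags passed it in replicate 1 and failed it in replicate 2. With exonic peaks only, the members had a mean of 45 peaks, 42.6% of those of replicate 2 were shared and a mean of 65.5% lay mainly in CDS, as fewer peaks enter. DNM2 then had a mean of 21 peaks, with 13 shared in each replicate. A peak in both replicates remained on 8 members and 38 other pathway genes. The other alternatives (gene by position, overlap of at least 50%, strand ignored, touching peaks) kept their values within the limits set, with 14 to 17 shared DNM2 peaks. Overlapping peaks of the shortest length coincide fully on the 50 nt grid. The 50% setting could therefore change only longer peaks and is a weak check. Leaving out a replicate gave 76 to 94 member peaks, 28 to 33 DNM2 peaks and 33% to 36.8% in CDS. Most member peaks lie at or near the lowest listed height, and depth is unknown.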
